A study of Oryza sativa with 12 samples.

Results

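A set of 10 genes of the cell division machinery was followed in developing caryopses of rice, in which the number of endosperm cells is set early in grain growth. The genes were chosen by name and identifier, with no threshold on measured values but with earlier results of these data known. They comprised 4 cyclin-dependent kinase genes, 3 B-type cyclin genes, a gene of a kinase inhibitor and 2 DNA replication genes. All 10 were listed in each of the 12 libraries and all 10 were among the 21470 genes tested, out of 35587 genes listed in at least 1 library. Expression was measured by RNA-seq in whole grains of *RGB1Ri-5* and of *WYJ8* at 5 and 10 days after flowering (DAF), with 3 libraries in each of the 4 groups. *WYJ8* is Wuyujing 8, the wildtype, and *RGB1Ri-5* is 1 transgenic line of that background, in which a hairpin under the maize ubiquitin promoter targets *RGB1*, the gene of the rice G protein β subunit. Plants of both genotypes were field grown and received no further treatment, and spikelets that flowered on the same date were labelled so that grains could be sampled by age. No source states that replicate libraries came from separate plants or plots, so the p-values measure only the spread between these libraries, which may be technical.

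Cell division is driven by kinases that act only when bound to a cyclin. In plants, CDKA kinases act at the entry into DNA replication and at the entry into mitosis and are expressed at a fairly steady level through the cycle, whereas CDKB kinases are specific to plants and their transcripts accumulate around G2 and mitosis. B-type cyclins are made in the same window and are destroyed as mitosis ends. KRP proteins bind and inhibit cyclin-kinase complexes, PCNA is the sliding clamp of DNA polymerase, and MCM2 is a subunit of the helicase that opens DNA at replication origins. In the cereal grain, the endosperm first divides as a syncytium, then cellularizes and divides further, and later stops dividing, replicates its DNA without mitosis and fills with starch and storage protein. In whole grains, fewer dividing cells and less RNA per cell cannot be told apart as sources of a lower transcript level.

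The 10 loci lie on 7 chromosomes of the MSU Release 7 annotation, and none overlaps another listed gene. The kinase genes are *CDKA;1* (LOC_Os03g02680, chromosome 3, 997599 to 1001243), *CDKA;2* (LOC_Os02g03060, chromosome 2, 1207634 to 1211226), *CDKB1;1* (LOC_Os01g67160, chromosome 1, 38981301 to 38984078) and *CDKB2;1* (LOC_Os08g40170, chromosome 8, 25419883 to 25421827). The cyclin genes are *CYCB1;1* (LOC_Os01g59120, chromosome 1, 34149430 to 34152417), *CYCB2;1* (LOC_Os04g47580, chromosome 4, 28218713 to 28221677) and *CYCB2;2* (LOC_Os06g51110, chromosome 6, 30915028 to 30918862). The other 3 are *KRP1* (LOC_Os02g52480, chromosome 2, 32111310 to 32112949), *PCNA* (LOC_Os02g56130, chromosome 2, 34351406 to 34353656) and *MCM2* (LOC_Os11g29380, chromosome 11, 17046947 to 17052915). Each name also occurs in the RefSeq gene table on the same chromosome as its locus, where the name of the first cyclin is given to 2 genes. The CDKA genes are paralogs, as are the CYCB2 genes, and how reads shared between such copies were divided is uncertain.

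Values are FPKM, a fragment count divided by transcript length and by the mapped fragments of the library, which can be compared between genes on this per-length scale. The libraries did not share a common make-up. The 100 most abundant genes held 48.7 to 52.8% of all FPKM in *WYJ8* at 10 DAF, against 12.9 to 22.4% in the other 9 libraries, and the median of the tested genes was 4.90 to 5.25 FPKM in *WYJ8* at 10 DAF and 8.95 to 11.2 FPKM elsewhere. FPKM divide the total of a library among its genes, so where a few genes take more of it the values of the rest read lower. The absolute depth of the libraries is unknown. *OsNF-YB1*, an endosperm transcription factor gene, was listed at 0.0754 to 0.607 FPKM in *RGB1Ri-5* and 132.8 to 294 FPKM in *WYJ8* at 5 DAF. At 10 DAF its values were 17.5, 109.6 and 8.04 FPKM in *RGB1Ri-5* and 252 to 331 FPKM in *WYJ8*. The second *RGB1Ri-5* library of 10 DAF stood apart from its replicates in this gene and gave the lowest of the 3 values for 67.8% of all tested genes. The part of these differences in the results was not tested, and *RGB1* itself was not analysed here.

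The CDKA kinase genes varied least among the kinases. *CDKA;1* had 21.3, 24.7 and 25.0 FPKM in *RGB1Ri-5* and 30.9, 33.1 and 30.4 FPKM in *WYJ8* at 5 DAF, and 37.2, 35.5 and 32.0 FPKM in *RGB1Ri-5* and 29.5, 26.9 and 32.6 FPKM in *WYJ8* at 10 DAF. The *RGB1Ri-5* libraries of 5 DAF lay below all 9 others, which overlapped from group to group. *CDKA;2* had lower values, with 5.56, 6.64 and 6.93 FPKM in *RGB1Ri-5* and 11.4, 11.9 and 10.7 FPKM in *WYJ8* at 5 DAF. At 10 DAF it had 10.1, 10.9 and 11.3 FPKM in *RGB1Ri-5* and 6.21, 5.42 and 5.81 FPKM in *WYJ8*. Its groups formed a high pair, the *RGB1Ri-5* grains of 10 DAF with the *WYJ8* grains of 5 DAF, and a low pair, with overlap inside each pair and none between them.

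Both CDKB kinase genes showed the same pairing of groups with a wider gap. *CDKB1;1* had 8.98, 12.2 and 11.5 FPKM in *RGB1Ri-5* and 26.5, 28.0 and 20.3 FPKM in *WYJ8* at 5 DAF, and 28.8, 27.6 and 26.8 FPKM in *RGB1Ri-5* and 12.8, 9.82 and 11.2 FPKM in *WYJ8* at 10 DAF. The low pair of groups overlapped in this gene. *CDKB2;1* had 10.3, 11.9 and 12.7 FPKM in *RGB1Ri-5* and 37.8, 40.6 and 24.4 FPKM in *WYJ8* at 5 DAF. At 10 DAF it had 37.4, 29.3 and 41.8 FPKM in *RGB1Ri-5* and 6.36, 5.09 and 3.51 FPKM in *WYJ8*. Here the low groups were separate, and every *WYJ8* library of 10 DAF lay below every other library.

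The B-type cyclin genes had the widest range, as a ratio of the highest to the lowest group mean. *CYCB1;1* had 5.10, 6.53 and 8.18 FPKM in *RGB1Ri-5* and 15.8, 18.2 and 12.4 FPKM in *WYJ8* at 5 DAF, and 22.5, 17.4 and 26.6 FPKM in *RGB1Ri-5* and 2.66, 2.00 and 1.45 FPKM in *WYJ8* at 10 DAF. *CYCB2;1* had 3.51, 4.86 and 5.03 FPKM in *RGB1Ri-5* and 10.6, 11.8 and 6.85 FPKM in *WYJ8* at 5 DAF, and 13.8, 9.80 and 14.9 FPKM in *RGB1Ri-5* and 0.885, 1.05 and 0.837 FPKM in *WYJ8* at 10 DAF. For both genes the *RGB1Ri-5* grains of 10 DAF overlapped the *WYJ8* grains of 5 DAF at the top, followed without overlap by *RGB1Ri-5* at 5 DAF and then *WYJ8* at 10 DAF. *CYCB2;2* had 2.62, 2.86 and 3.62 FPKM in *RGB1Ri-5* and 12.1, 10.5 and 6.997 FPKM in *WYJ8* at 5 DAF. At 10 DAF it had 16.5, 14.9 and 17.2 FPKM in *RGB1Ri-5* and 1.25, 1.15 and 0.588 FPKM in *WYJ8*. Its 4 groups were fully separate, which held for no other gene of the set, and *RGB1Ri-5* at 10 DAF was the highest.

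*KRP1*, the gene of the kinase inhibitor, had 21.0, 15.4 and 22.8 FPKM in *RGB1Ri-5* and 31.7, 39.4 and 31.9 FPKM in *WYJ8* at 5 DAF. At 10 DAF it had 31.9, 26.5 and 28.8 FPKM in *RGB1Ri-5* and 18.0, 16.1 and 17.8 FPKM in *WYJ8*. Its groups fell into the same high and low pairs as those of the second CDKA gene, with overlap inside each pair.

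*PCNA* had the highest mean over the 12 libraries of the 10 genes. It had 21.4, 26.9 and 30.4 FPKM in *RGB1Ri-5* and 80.1, 78.2 and 54.1 FPKM in *WYJ8* at 5 DAF, and 51.3, 59.0 and 55.2 FPKM in *RGB1Ri-5* and 14.1, 13.9 and 8.82 FPKM in *WYJ8* at 10 DAF. *MCM2* had 4.33, 5.31 and 5.85 FPKM in *RGB1Ri-5* and 31.9, 23.7 and 20.4 FPKM in *WYJ8* at 5 DAF, and 16.2, 23.1 and 18.6 FPKM in *RGB1Ri-5* and 7.36, 4.74 and 4.41 FPKM in *WYJ8* at 10 DAF. The highest group mean of both was that of *WYJ8* at 5 DAF, where *PCNA* averaged 70.8 ± 14.5 FPKM and *MCM2* 25.4 ± 5.92 FPKM (SD, n = 3 each), and in both genes this group overlapped *RGB1Ri-5* at 10 DAF. At the low end, *RGB1Ri-5* at 5 DAF overlapped *WYJ8* at 10 DAF for *MCM2* and lay above it for *PCNA*.

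**Figure D1:**
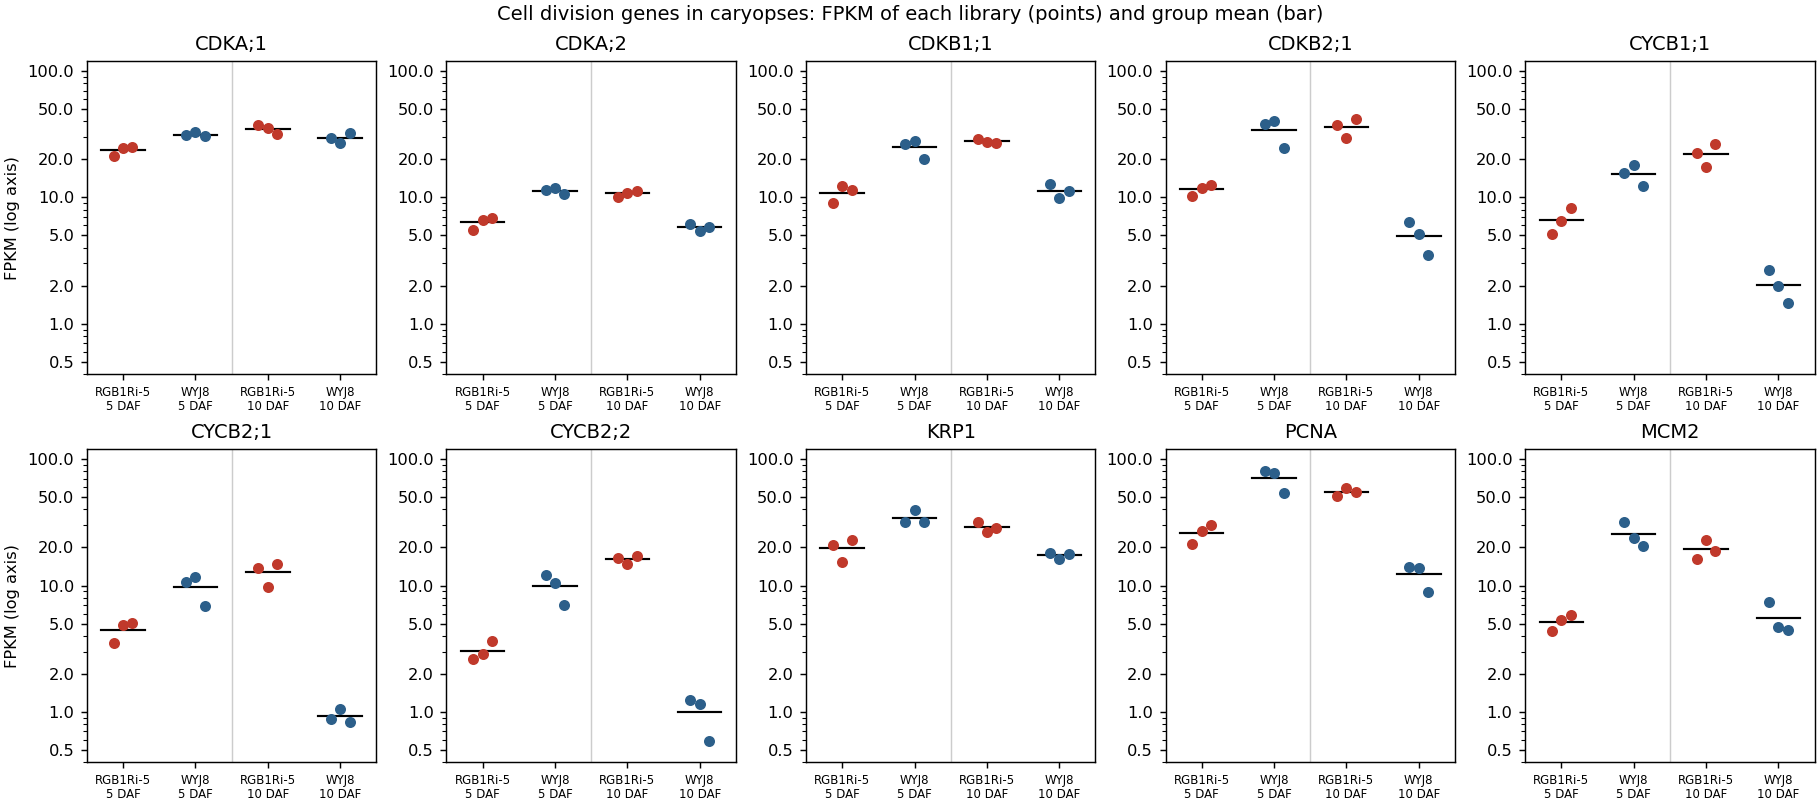
FPKM (log axis) of the 10 cell division genes, 1 panel per gene, with a point for each of the 3 libraries of a group and a bar for the group mean. The *RGB1Ri-5* libraries lie below *WYJ8* at 5 DAF in all panels and above *WYJ8* at 10 DAF in all but that of *CDKA;1*. For the second CDKA gene and *KRP1* at 10 DAF this direction is not kept with median-of-ratios rescaling or quantile normalization of the libraries.

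The comparison at 5 DAF asked which genes differed between *RGB1Ri-5* and *WYJ8* while the grain was still young. The study reports a delay of caryopsis growth in its *RGB1* knockdown lines. Genotype and developmental age therefore cannot be told apart in comparisons of the genotypes at the same day. All 10 genes were lower in *RGB1Ri-5* than in *WYJ8* at an adjusted p under 0.05 from limma, beside 29.6% of all tested genes. With a further limit of 1 on the size of the log2 fold change, 6 of the 10 were called lower, beside 10.1% of tested genes, and none was called higher. The 3 libraries of *RGB1Ri-5* lay below the 3 of *WYJ8* for all 10, beside 34.9%. The replication gene *MCM2* changed the most of the 10, by −2.08 (SE 0.21, adjusted p = 9.33e-06), as a log2 fold change on the scale of log2(FPKM + 1), which understates the change of low genes and holds for every fold change given here. *CDKB2;1* followed at −1.46 (SE 0.22, adjusted p = 0.000193), then *CYCB2;2* at −1.41 (SE 0.20, adjusted p = 0.00011) and *PCNA* at −1.39 (SE 0.20, adjusted p = 0.000133). *CDKB1;1* and *CYCB1;1* were both at −1.12 (SE 0.15 and 0.21, adjusted p = 7.73e-05 and 0.00102). Short of the limit were *CYCB2;1* at −0.96 (adjusted p = 0.00221), *KRP1* at −0.78 (adjusted p = 0.000913), *CDKA;2* at −0.74 (adjusted p = 0.000167) and *CDKA;1* at −0.40 (adjusted p = 0.00788). The median over the 10 genes was −1.12, and that over all tested genes was −0.072. Without the first *RGB1Ri-5* library 4 genes were called, since *CDKB1;1* came to −0.999 and *CYCB1;1* to −0.97, and without the second *WYJ8* library that cyclin gene came to −0.998. *CYCB2;1* passed the limit at −1.01 without the second *RGB1Ri-5* library, −1.03 without the third, and −1.17 without the third *WYJ8* library.

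The same comparison at 10 DAF addressed the stage of grain filling, and there the order of the genotypes was the opposite one. In all, 7 genes were called higher in *RGB1Ri-5*, beside 36.4% of all tested genes, and the 3 libraries of *RGB1Ri-5* lay above the 3 of *WYJ8* for 9 genes, beside 76.3%. The B-type cyclin gene *CYCB2;2* was higher by 3.12 (SE 0.20, adjusted p = 1.24e-06), *CYCB1;1* by 2.93 (SE 0.21, adjusted p = 2.13e-06), *CYCB2;1* by 2.83 (SE 0.20, adjusted p = 2.13e-06) and the kinase gene *CDKB2;1* by 2.65 (SE 0.22, adjusted p = 3.2e-06). These 4 genes of mitosis ranked above 98.4 to 99.3% of all tested genes. *PCNA* (2.11, SE 0.20), *MCM2* (1.66, SE 0.21) and *CDKB1;1* (1.23, SE 0.15) were also called, with adjusted p of 4.98e-06, 2.34e-05 and 1.88e-05.

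The FPKM as deposited were shifted at this stage, with a median log2 fold change of 0.80 over all tested genes and of 1.88 over the 10. Relative to the median of all genes, the B-type cyclin genes were 2.03 to 2.33 higher, *CDKB2;1* 1.85, *PCNA* 1.31, *MCM2* 0.86 and *CDKB1;1* 0.44. When libraries were rescaled by the median of gene-wise ratios, which brings the median of all genes to 0.0020, 5 genes were called higher, beside 9.25% of tested genes. These were the 3 B-type cyclin genes, at 2.15 to 2.47, *CDKB2;1* at 1.76 and *PCNA* at 1.16. *MCM2* came to 0.77 (adjusted p = 0.0106) and *CDKB1;1* to 0.29 (adjusted p = 0.0709). *CDKA;2* and *KRP1*, at 0.79 (adjusted p = 4.78e-05) and 0.71 (adjusted p = 0.000769) as deposited, were at −0.10 (adjusted p = 0.425) and −0.24 (adjusted p = 0.155) after rescaling and did not pass the test. *CDKA;1*, at 0.23 as deposited (adjusted p = 0.0624), turned to −0.74 (adjusted p = 0.00032), and was at 0.36 (adjusted p = 0.00739) when libraries were only set to equal totals. In the values as deposited, 7 genes were called whichever library was left out, the second *RGB1Ri-5* library included. Beside them, 7604 to 10050 of all tested genes were called in either direction.

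**Figure D2:**
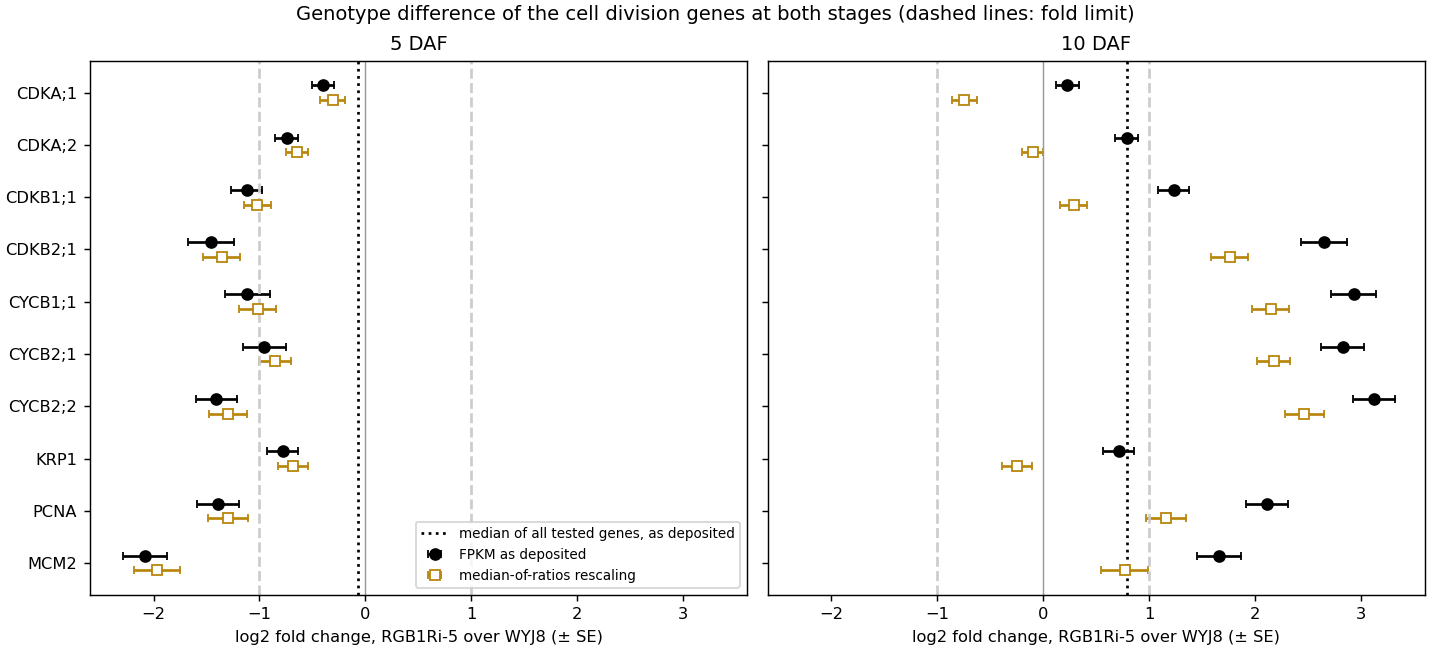
Log2 fold change of *RGB1Ri-5* over *WYJ8* (x axis, ± SE) for each gene at 5 DAF (left) and 10 DAF (right), for FPKM as deposited (filled circles) and after median-of-ratios rescaling (open squares). All 10 genes lie left of 0 at 5 DAF under both scalings, and at 10 DAF the CDKA genes and *KRP1* change side with this rescaling while the B-type cyclin genes, *CDKB2;1* and *PCNA* lie beyond the limit of 1 under both.

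Stages were compared within each genotype to show in which direction its grains moved with age. In *RGB1Ri-5*, all 10 genes were higher at 10 DAF than at 5 DAF at an adjusted p under 0.05, beside 27% of all tested genes, and 7 were called, beside 7.56%. The 3 libraries of 10 DAF lay above the 3 of 5 DAF for all 10, beside 33% of tested genes. *CYCB2;2* had the greatest increase of the 10 at 2.097 (SE 0.20, adjusted p = 8.62e-06), and the other cyclin genes were at 1.61 and 1.33. *MCM2* was higher by 1.72, the CDKB genes by 1.28 and 1.55 and *PCNA* by 1.06, while the CDKA genes (0.54 and 0.68) and *KRP1* (0.55) did not reach the limit. The median of the 10 was 1.31, against 0.095 over all tested genes. *PCNA* missed the limit at 0.92 without the first *RGB1Ri-5* library of 5 DAF and at 0.95 after median-of-ratios rescaling.

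In *WYJ8* the change ran the other way. In all, 7 genes were called lower at 10 DAF than at 5 DAF, beside 33.3% of all tested genes, and the libraries of 10 DAF lay below those of 5 DAF for 9 genes, beside 79%. *CDKB2;1* fell by 2.56 on the log2 scale (SE 0.22, adjusted p = 5.01e-06), the 3 B-type cyclin genes fell by 2.43 to 2.45, *PCNA* fell by 2.44, *MCM2* fell by 2.02 and *CDKB1;1* fell by 1.07. *CDKA;2* (−0.86) and *KRP1* (−0.94) passed the adjusted p but not the limit, and *CDKA;1* was at −0.086 (adjusted p = 0.463). The median was −2.23 over the 10 genes and −0.77 over all tested genes. After median-of-ratios rescaling 6 genes were called lower, beside 7.37% of tested genes, with values from −1.14 for *MCM2* to −1.82 for *CYCB2;1*. *CDKB1;1* was at −0.14 with rescaling and, in the values as deposited, at −0.98 without the second library of either stage. With rescaling the CDKA genes came to 0.87 (the first, adjusted p = 0.000158) and 0.023 (the second, adjusted p = 0.869), and *KRP1* to 0.0042 (adjusted p = 0.985).

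**Figure D3:**
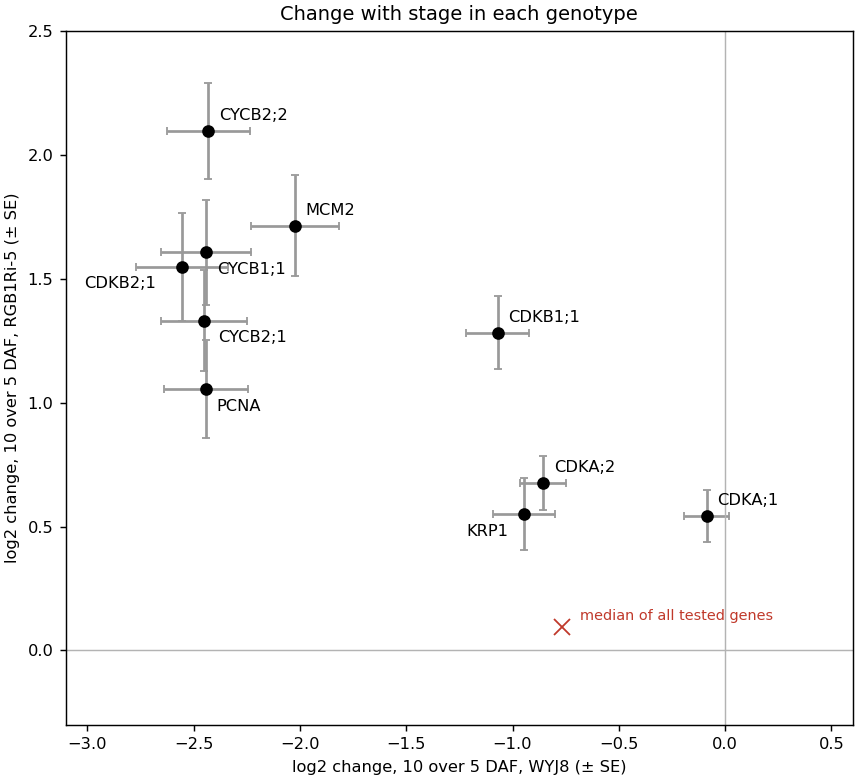
Log2 fold change of 10 over 5 DAF in *RGB1Ri-5* (y axis) against that in *WYJ8* (x axis), ± SE, in FPKM as deposited, with the median of all tested genes as a cross. All 10 genes lie above 0 on the y axis and left of 0 on the x axis, *CDKA;1* by only 0.086 (limma adjusted p = 0.463). After median-of-ratios rescaling *CDKA;1* comes to 0.87 on the x axis, and *CDKA;2* (0.023) and *KRP1* (0.0042) lie near 0.

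Genes called in opposite directions were counted next, between comparisons that share no library. There were 6 genes (both CDKB genes, *CYCB1;1*, *CYCB2;2*, *PCNA* and *MCM2*) called lower in *RGB1Ri-5* at 5 DAF and higher at 10 DAF, beside 3.13% of all tested genes. Those 6 and *CYCB2;1* were called higher with stage in *RGB1Ri-5* and lower with stage in *WYJ8*, beside 3.42%. After median-of-ratios rescaling the first count was 4 (without *CDKB1;1* and *MCM2*), beside 1.37%, and the second was 5 (without *CDKB1;1* and *PCNA*), beside 1.57%. The difference between the genotype effects of the stages was tested as an interaction term, which was above 0 at an adjusted p under 0.05 for all 10 genes, beside 67.2% of tested genes, and called for 9, beside 41.4%. It was 4.53 (SE 0.28, adjusted p = 4.6e-07) for *CYCB2;2*, 3.50 (SE 0.28) for *PCNA* and 3.74 (SE 0.29) for *MCM2*, and the median over the 10 genes was 3.62, against 0.86 over all tested genes. After median-of-ratios rescaling the median was 2.60 over the 10 genes and −0.059 over all tested genes, and 7 genes were called, beside 10.9%. The second CDKA gene was then at 0.55 (adjusted p = 0.00978), *KRP1* at 0.44 (adjusted p = 0.0919) and *CDKA;1*, at 0.63 as deposited (adjusted p = 0.00257), at −0.44 (adjusted p = 0.0502).

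The high groups, *RGB1Ri-5* grains of 10 DAF and *WYJ8* grains of 5 DAF, were also compared directly. None of the 10 genes was called by limma, beside 1.09% of all tested genes. At an unadjusted p under 0.05 there were 2 of the 10 genes (*CYCB1;1* and *CYCB2;2*) and 3708 of the 21470 tested genes, which are similar shares. *CYCB2;2* was higher in *RGB1Ri-5* without overlap, as 7.3% of tested genes were, by 0.69 (95% confidence interval 0.26 to 1.12, adjusted p = 0.0998, with a range of 0.0496 to 0.313 over the alternatives run). The other cyclin genes were at 0.49 (0.025 to 0.95, adjusted p = 0.264) for *CYCB1;1* and 0.38 (−0.071 to 0.82) for *CYCB2;1*. *PCNA* was at −0.33 (−0.77 to 0.098), *MCM2* at −0.37 (−0.82 to 0.085) and *KRP1* at −0.23 (−0.55 to 0.089). The kinase genes lay between −0.067 and 0.16, the outermost bounds of their intervals being −0.38 and 0.57, both those of *CDKB2;1*. For 8 of the genes the interval included 0 and values of either sign. Without the second *RGB1Ri-5* library of 10 DAF, 799 of all tested genes were called in place of 235, and none of the 10.

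The ratio of each gene to *CDKA;1* within a library does not depend on how libraries are scaled, apart from the pseudocount. It was taken as a difference of log2(FPKM + 1) values and tested by an exact permutation test, two-sided, which with 3 libraries against 3 cannot go below p = 0.1. At 5 DAF, all 9 ratios were lower in *RGB1Ri-5* than in *WYJ8* without overlap of libraries (exact p = 0.1 for each, adjusted 0.1 over the 9), beside 16.4% of all other tested genes, with differences from −0.34 for *CDKA;2* to −1.68 for *MCM2* and a median of 0.33 over all other tested genes. At 10 DAF, all 9 were higher in *RGB1Ri-5* without overlap (exact p = 0.1 and adjusted 0.1 for each), beside 60.3% of all other tested genes, from 0.48 for *KRP1* to 2.89 for *CYCB2;2*. The median over all other tested genes was 0.57, above the ratios of *KRP1* and of the second CDKA gene (0.56). The *PCNA* ratio, for example, was 0.13 ± 0.13 in *RGB1Ri-5* and 1.12 ± 0.28 in *WYJ8* at 5 DAF, and 0.65 ± 0.17 in *RGB1Ri-5* and −1.23 ± 0.47 in *WYJ8* at 10 DAF (log2, SD, n = 3 each). A ratio shows unequal change of a pair of genes and not which of them changed.

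Between stages, 7 ratios were higher at 10 DAF than at 5 DAF in *RGB1Ri-5* without overlap (exact p = 0.1, adjusted 0.129), beside 9.04% of all other tested genes, while those of the second CDKA gene (0.13) and *KRP1* (0.0082) overlapped. In *WYJ8*, all 9 ratios were lower at 10 DAF without overlap (exact p = 0.1, adjusted 0.1), beside 73.4% of all other tested genes, from −0.77 for the second CDKA gene to −2.47 for *CDKB2;1*, with a median of −0.68 over all other tested genes. Between *RGB1Ri-5* grains of 10 DAF and *WYJ8* grains of 5 DAF, the ratio of *CYCB2;2* was higher by 0.55, as 2.71% of all other tested genes were without overlap, and those of *MCM2* (−0.51), *PCNA* (−0.48), *KRP1* (−0.37) and the second CDKA gene (−0.21) were lower, beside 17.4%, each without overlap (exact p = 0.1, adjusted 0.18). The other 4 ratios overlapped between these groups.

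**Figure D4:**
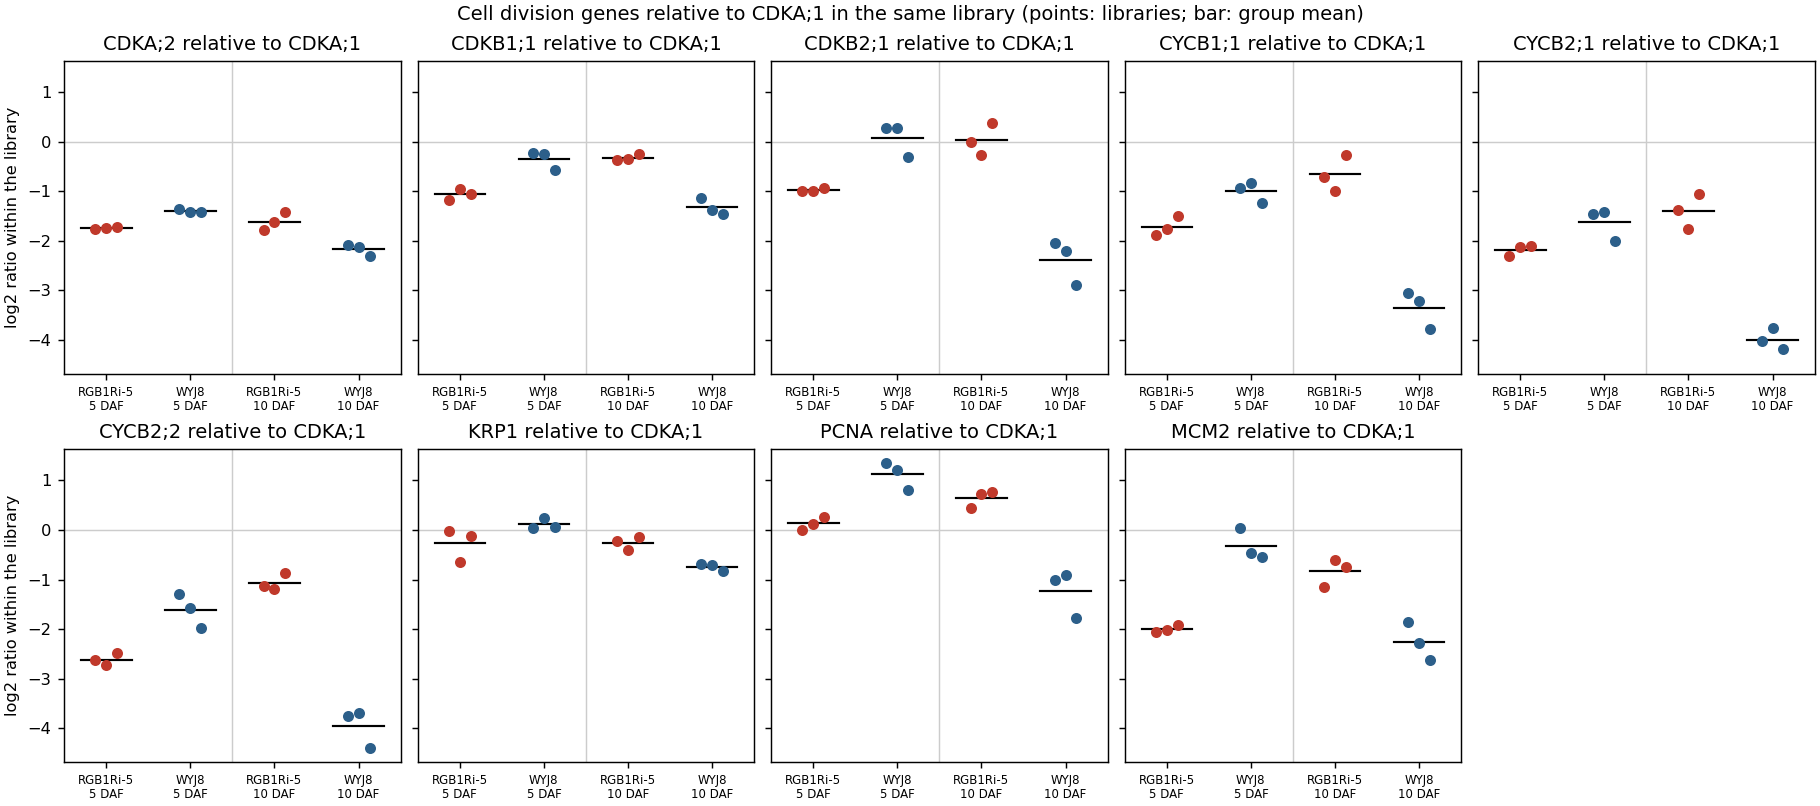
Log2 ratio of each of 9 genes to *CDKA;1* in the same library (y axis), with a point per library and a bar for the group mean. In every panel *RGB1Ri-5* lies below *WYJ8* at 5 DAF and above it at 10 DAF, with no overlap of the 3 libraries of each group at either stage, as in 16.4% and 60.3% of all other tested genes.

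Replicates of a group also differed in a way that most of the 10 genes shared. In *RGB1Ri-5* at 5 DAF, the first library was the lowest of 3 for 9 genes, beside 47.3% of tested genes, and the third was the highest for 9 genes, beside 30.5%. In *WYJ8* at 5 DAF, the third library was the lowest for 9 genes, beside 56.3% of tested genes, and it had the highest *OsNF-YB1* value of that group (294 FPKM). In *WYJ8* at 10 DAF, the first library was the highest for 8 genes, beside 42.3% of tested genes, and it too had the highest *OsNF-YB1* value of its group (331 FPKM). A link between *OsNF-YB1* and the order of replicates was not tested. In *RGB1Ri-5* at 10 DAF, the second library, which stood apart, was the lowest for *CDKB2;1*, the 3 B-type cyclin genes and *KRP1*, beside 67.8% of tested genes. That library was the highest for *PCNA* and *MCM2*, beside 18.7%.

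The genes whose pattern was most like a cyclin and a replication gene were sought among 10528 others with a mean of at least 10 FPKM, by the root mean square difference of centred log2 values over the 12 libraries. LOC_Os01g70560 was nearest to *CYCB1;1* at 0.140, with group means of 5.54 FPKM in *RGB1Ri-5* and 13.7 FPKM in *WYJ8* at 5 DAF and 20.1 FPKM in *RGB1Ri-5* and 1.22 FPKM in *WYJ8* at 10 DAF. Of the 10 genes themselves, *CYCB2;1* (0.17) and *CDKB2;1* (0.19) were nearest to it, with 3 other genes nearer, and *CDKA;1* was farthest (1.07). LOC_Os08g01100 was nearest to *PCNA* at 0.148, with means of 7.45 FPKM in *RGB1Ri-5* and 25.1 FPKM in *WYJ8* at 5 DAF and 18.2 FPKM in *RGB1Ri-5* and 3.55 FPKM in *WYJ8* at 10 DAF. The kinase gene *CDKB2;1* was the one of the 10 nearest to *PCNA* (0.26), with 20 other genes nearer, and *MCM2*, the other replication gene, was at 0.43, with 205 nearer.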

How the data were processed

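RNA-seq of caryopses gave 12 libraries, 3 for each genotype and stage, grouped by the sample labels. Per the labels and the methods of the study, the authors checked reads with FastQC, mapped them with TopHat2 2.1.0 to MSU Release 7 and deposited FPKM values per gene from Cufflinks 2.1.1, without counts. Absolute depth is therefore unknown, and intervals that need it are left out. Relative depth was estimated at 0.818 to 1.08 of the first *WYJ8* library of 5 DAF. It was read from the most frequent ratio of a library to that one, over genes below 0.3 FPKM in both. That ratio rested on 27 to 79 genes per library, so the estimate is rough.

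Missing entries were read as 0. Genes averaging at least 1 FPKM were modelled as log2(FPKM + 1) in limma 3.58.1 (R 4.3.3), with 1 mean per group, variances moderated along an intensity trend and p-values adjusted by Benjamini-Hochberg over every tested gene. Calls required an adjusted p below 0.05 together with a change of at least 1 in log2 units, up or down. The code was tested on simulated data. Alternatives covered 4 other scalings, the pseudocount, the filter on low values, the libraries fitted, the limit on fold change, a replicate block and leaving out each library.

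The 10 genes, the lists and the tests were chosen with earlier results of these data known. All 10 genes are described, and as further genes the nearest in pattern to *CYCB1;1* and to *PCNA* are named. Other cell cycle lists, marker lists other than *OsNF-YB1* and the *RGB1* transcript were not analysed here, because the identifiers could not be paired with names from the tables used. RefSeq names came from another assembly (ASM3414082v1), so coordinates are those of the deposited files.

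Replicate numbers were checked for pairing by the correlation of deviations from the group means between libraries of the same number. It was 0.11, 0.25 and 0.18 between the stages of *WYJ8*, −0.10, 0.16 and 0.13 between those of *RGB1Ri-5*, and −0.27 to −0.013 between genotypes. For an alternative fit, the numbers were taken to pair only the stages of *WYJ8*. No source states a pairing, and libraries of unlike number were not compared, so these values cannot establish it.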

Additional observations from a re-analysis of the deposited data

Results flagged for a closer look

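The genotype difference, *RGB1Ri-5* minus *WYJ8*, differed between 10 and 5 DAF for each of the 10 genes by the interaction term of limma (log2, adjusted p under 0.05 in FPKM as deposited). Beside these, 67.2% of all tested genes had a term above 0 at this adjusted p. The term was 4.53 for *CYCB2;2*, 4.10 for *CDKB2;1*, 4.05 for *CYCB1;1*, 3.78 for *CYCB2;1*, 3.74 for *MCM2*, 3.50 for *PCNA*, 2.35 for *CDKB1;1*, 1.53 for *CDKA;2*, 1.49 for *KRP1* and 0.63 for *CDKA;1*. That of *CDKA;1* turned to −0.44 after median-of-ratios rescaling (adjusted p = 0.0502), and that of *KRP1* came to 0.44 (adjusted p = 0.0919). The term of *CDKA;1* was −0.037 with quantile normalization (adjusted p = 0.859). It was 0.16 with equal totals and the 100 highest genes excluded (adjusted p = 0.413). Groups of 3 libraries were not screened for outlying values.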

How the results depend on the processing

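With all libraries, 569 recomputed fold changes of the 10 genes kept direction and call, 14 reversed, 13 lost the call and 4 gained it. Low-value filters, fits of compared libraries, trend and block cannot alter fold changes, so many of the 569 could not reverse. With 1 library left out 409 kept both, 2 reversed, 6 lost the call and 3 gained it. Without a fold limit, 10, 9, 10, 9, 10 and 0 of the 10 genes were called, and 10982, 17392, 9387, 17046, 16245 and 484 of all tested genes. The order is 5 DAF, 10 DAF, stages of *RGB1Ri-5*, stages of *WYJ8*, interaction, and *RGB1Ri-5* at 10 DAF against *WYJ8* at 5 DAF. Median-of-ratios rescaling gave 3938 calls over all genes at 10 DAF, 3096 for the stages of *WYJ8* and 5220 for the interaction, and quantile normalization 3575, 2666 and 5441. These are against 8527, 7613 and 10373 as deposited, and the cause was not tested. Equalizing totals without the 100 highest genes gave 4825 for the stages of *WYJ8*. A mean of at least 5 FPKM gave 2401 for the stages of *RGB1Ri-5* against 3631, and 108 for the last comparison, where only the libraries compared gave 87, against 235.

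The 14 reversals came with rescaling. At 10 DAF, *CDKA;1* was at −0.74 with median-of-ratios rescaling, −0.45 with quantile normalization and −0.39 with the highest genes excluded, *CDKA;2* at −0.10 and −0.081, and *KRP1* at −0.24 and −0.035 with the first 2 of these. For the stages of *WYJ8*, *CDKA;1* was at 0.87, 0.56 and 0.51, and with median-of-ratios rescaling *CDKA;2* was at 0.023 and *KRP1* at 0.0042. The interaction of *CDKA;1* was −0.44, −0.037 and 0.16 (not reversed), and with quantile normalization those of *CDKA;2* (0.69) and *KRP1* (0.77) were also short of the limit. Equal totals reversed none of these and called *KRP1* for the stages of *WYJ8* (−1.05) and *CYCB2;1* at 5 DAF (−1.04). *CYCB2;1* was called there too with the highest genes excluded (−1.16) and with a pseudocount of 0.1 (−1.09). With quantile normalization and with the highest genes excluded, *CDKB1;1* was below the limit at 10 DAF (0.45 and 0.66) and for the stages of *WYJ8* (−0.33 and −0.52), as was *MCM2* at 10 DAF with the first (0.78). With a pseudocount of 0.1, ratios to *CDKA;1* moved by more than the spread for *CDKA;2* (−0.41 at 5 DAF, −0.86 for the stages of *WYJ8*), *CYCB1;1* (3.16 at 10 DAF, −2.80 for the stages of *WYJ8*), *CYCB2;1* (3.40 and −3.14) and *CYCB2;2* (3.72 and −3.12, and 1.83 for the stages of *RGB1Ri-5*).

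Leaving out 1 library gave 4 to 7 called genes at 5 DAF, beside 4250 to 4712 of all tested genes. Calls at 10 DAF were 7 to 7 (7604 to 10050). Stages of *RGB1Ri-5* (3345 to 4003) and of *WYJ8* (6693 to 8464) gave 6 to 7. The interaction gave 9 to 9 (9810 to 11277) and the last comparison above 0 to 0. There *CDKB2;1* ranged from −0.13 to 0.23, and its sign turned without library 3 of *WYJ8* (−0.13) or *RGB1Ri-5* (−0.015). Calls over all genes ranged from 115 to 799 (without *RGB1Ri-5* libraries 1 and 2), with 148 and 135 without *WYJ8* libraries 1 and 3.

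A replicate block changed no count for the 10 (6, 7, 7, 7, 9 and 0, in the order above). It gave 4459, 8529, 3622, 7607, 10337 and 167 calls over all genes. In a fit of *WYJ8* alone, chosen after the data were seen, the block gave 7 and 7738 calls. Unknown library depth limits what can be said of values near 1 FPKM, such as those of *CYCB2;1* and *CYCB2;2* in *WYJ8* at 10 DAF.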

Other observations

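Ratios of FPKM to *PCNA* within a library were examined after the values had been seen and are given without a test. The *MCM2* ratio was 0.202, 0.197 and 0.193 in *RGB1Ri-5* and 0.399, 0.303 and 0.378 in *WYJ8* at 5 DAF, and 0.317, 0.391 and 0.338 in *RGB1Ri-5* and 0.523, 0.342 and 0.500 in *WYJ8* at 10 DAF. The 3 *RGB1Ri-5* libraries of 5 DAF were the lowest of the 12. The *CYCB1;1* ratio was 0.238, 0.243 and 0.269 in *RGB1Ri-5* and 0.197, 0.233 and 0.229 in *WYJ8* at 5 DAF, and 0.439, 0.294 and 0.482 in *RGB1Ri-5* and 0.189, 0.144 and 0.164 in *WYJ8* at 10 DAF. The *RGB1Ri-5* libraries of 10 DAF were the highest of the 12, and the second of them, which stood apart from its replicates in other genes, was the lowest of these 3.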
